A study of Caenorhabditis elegans with 6 samples.

Results

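The eggshell and fertilisation surface genes described here are 10 named genes of Caenorhabditis elegans that build the coat of the egg or act on the oocyte surface when sperm enters: cbd-1, perm-2, perm-4, egg-1, egg-2, egg-3, chs-1, cpg-1, cpg-2 and cpg-3. They were taken by gene name from a table in which 22389 genes carry a read count, each name matched 1 row, and all 10 passed the filter on low counts that left 13778 genes for testing. Polyadenylated RNA of whole adult worms grown on solid medium was sequenced in 3 libraries of a linc-4 mutant, made by CRISPR deletion of that long intergenic non-coding RNA gene in the N2 background, and in 3 libraries of wild type N2, the laboratory strain. The sources used here do not give the extent of the deletion, the number of independent lines, the sex, the exact adult age or the number of worms per library. Nor do the labels say that libraries of 1 group came from separate cultures, so p-values measure the spread between these libraries, which may be technical.

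The worm eggshell is assembled around the newly fertilised egg from material that the oocyte has already made. From the outside inwards it consists of a vitelline layer, a chitin layer, a layer of chondroitin proteoglycans and, beneath these, a lipid-rich permeability barrier. Proteins at the oocyte surface let sperm enter, and a protein complex at the cell cortex then starts egg activation, in which chitin synthesis and the release of cortical granules are switched on. The RNAs of these genes are abundant in oocytes, so in RNA of whole animals fewer oocytes and less RNA per oocyte cannot be told apart.

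All 10 genes lay lower in the 3 linc-4 libraries than in any wild type library, and 7 of them fell past the threshold: cbd-1, perm-2, perm-4, egg-1, chs-1, cpg-1 and cpg-2 (limma-voom, Benjamini-Hochberg adjusted p under 0.05 over all 13778 genes, linc-4 over wild type). Over all genes tested, 7.18% were called lower and 11.5% higher by this rule, and in 17.7% of them every linc-4 value lay below every wild type value. The median log2 fold change of the 10 genes was -0.53, against -0.01 for all genes tested. No member was called lower with a log2 fold change of at least 1 in size, a rule that 0.646% of all genes met, and the members' values ran from -0.78 to -0.24. Without linc-4 2, 2 of the 10 were called lower, against 1.17% of all genes, and without linc-4 3, 4 were, against 4.65%. With upper-quartile scaling 4 of the 10 were called lower, against 3.45% of all genes, with 476 genes lower and 2065 higher in all. The 7 genes called here are also those with an adjusted p under 0.05 in the authors' deposited table, a rule that calls 4.91% of the genes there lower.

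The libraries held between 3736372 and 12790323 counted reads, and a member had between 202 and 8865 reads in a library, so none of these values rests on few reads. linc-4 itself was at 0.640, 0.149 and 0.0761 CPM (read counts scaled to a common library size and composition) in linc-4 1, 2 and 3, against 49.6, 52.5 and 42.2 CPM in wild type 1, 2 and 3, which fits the labels. A principal component analysis placed the groups at opposite ends of its first axis (56.7% of the variance), and its second axis set linc-4 3 and wild type 2 apart from the other 4 libraries.

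The vitelline layer, the outermost coat, is represented by cbd-1, perm-2 and perm-4. CBD-1 is a secreted chitin-binding protein that holds this layer together, and PERM-2 and PERM-4 are vitelline layer proteins named for the permeable eggshells of embryos that lack them. cbd-1 had 165, 165 and 135 CPM in linc-4 1, 2 and 3, against 253, 250.0 and 278 CPM in wild type 1, 2 and 3. The lowest wild type value exceeded the highest linc-4 value by far more than the spread inside either group. cbd-1 fell 1.68-fold (adjusted p = 0.0035 by limma-voom, log2 fold change -0.75 with SE 0.14), and the call held when any 1 library was left out.

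perm-2, the member with the most reads per kilobase, had 739.9, 636 and 675 CPM in linc-4 worms, against 899, 1046 and 1029.9 CPM in wild type. Here the groups were separated by a narrower gap, and perm-2 fell 1.45-fold (adjusted p = 0.022 by limma-voom, log2 fold change -0.53 with SE 0.14). Its call was lost without linc-4 2, without linc-4 3 or without wild type 3, with an adjusted p of up to 0.12. perm-4 had 282, 310.3 and 319 CPM in linc-4 worms, against 397, 479 and 368 CPM in wild type. Its 1.36-fold fall passed by little (adjusted p = 0.048 by limma-voom, log2 fold change -0.44 with SE 0.14). In 5 of the 6 fits with 1 library removed the perm-4 call was lost, the one without wild type 3 being the exception (adjusted p of up to 0.16).

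perm-2 and perm-4 are immediate neighbours. On chromosome IV (WBcel235) perm-4 lies on the - strand from 1121457 to 1125107 and perm-2 on the + strand from 1126790 to 1128848, so that they point away from each other with 1682 bases between them and no annotated gene in this gap. In linc-4 1, 2 and 3 the library held 2.62, 2.05 and 2.12 perm-2 reads per perm-4 read, against 2.26, 2.18 and 2.80 in wild type 1, 2 and 3. The ratios overlapped between the groups. cbd-1 lies on the same chromosome, on the + strand from 11372991 to 11377627, with 2093 protein-coding genes between it and perm-2.

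**Figure D1:**
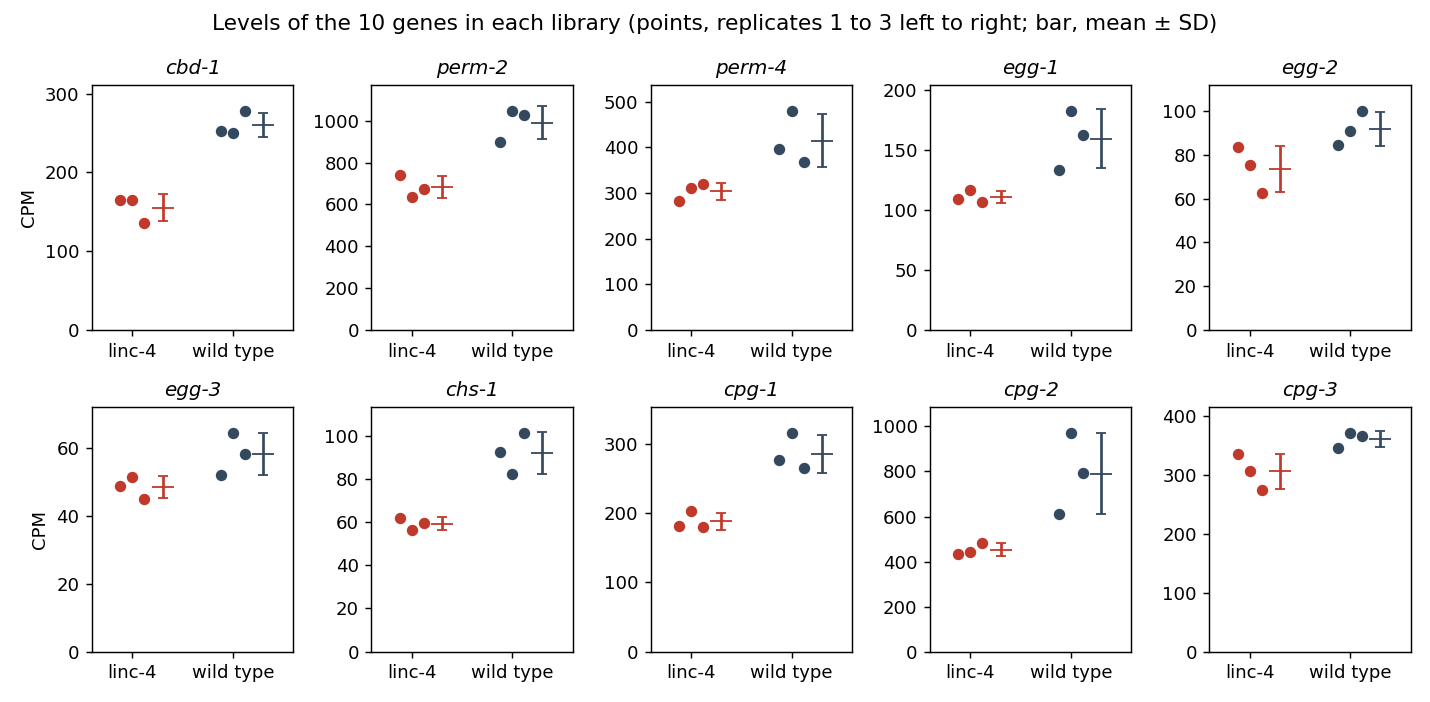
Each panel plots 1 gene, with CPM on the y axis, starting at 0, and the linc-4 and wild type libraries on the x axis; points are replicates 1 to 3 from left to right and the bar beside them is the mean ± SD (n = 3). In all 10 panels the highest linc-4 point lies below the lowest wild type point, with a wide gap in cbd-1 (165 CPM in linc-4 1 and 250.0 CPM in wild type 2) and a narrow one in egg-3 (51.5 CPM in linc-4 2 and 51.9 CPM in wild type 1).

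On the oocyte surface, egg-1 and egg-2 encode closely related transmembrane proteins with LDL receptor repeats, both of which sperm entry depends on. egg-1 had 109, 117 and 107 CPM in linc-4 1, 2 and 3, against 133, 182 and 162 CPM in wild type 1, 2 and 3. The wild type libraries were spread more widely, with a coefficient of variation of 4.82% in linc-4 worms and 15.5% in wild type. egg-1 fell 1.43-fold (adjusted p = 0.028 by limma-voom, log2 fold change -0.52 with SE 0.15), a call lost without wild type 3 or without any 1 of the linc-4 libraries, with an adjusted p of up to 0.086.

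egg-2 had 83.4, 75.3 and 62.4 CPM in linc-4 worms, against 84.6, 90.9 and 99.9 CPM in wild type. Its values nearly met, and it did not pass (log2 fold change -0.33, 95% interval -0.65 to -0.01 before adjustment, adjusted p = 0.14 by limma-voom). Because the genes are similar in sequence and the sources used here do not say how reads that match both were handled, the split of reads between them is uncertain. With the reads of egg-1 and egg-2 summed into 1 feature the log2 fold change was -0.44 (SE 0.14, adjusted p = 0.045 by limma-voom). Per egg-2 read there were 1.30, 1.55 and 1.71 egg-1 reads in the linc-4 libraries and 1.57, 2.01 and 1.63 in the wild type ones, which overlap. egg-1 lies on the + strand of chromosome III from 5728180 to 5730159 and egg-2 on the - strand from 7058516 to 7060597.

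Egg activation at the cortex depends on EGG-3, a protein tyrosine phosphatase-like protein that gathers the chitin synthase and the kinase MBK-2 beneath the plasma membrane. egg-3 had 48.7, 51.5 and 45.1 CPM in linc-4 1, 2 and 3, against 51.9, 64.4 and 58.3 CPM in wild type 1, 2 and 3. linc-4 2 and wild type 1 lay close together, and egg-3 did not pass (log2 fold change -0.27, 95% interval -0.59 to 0.04, adjusted p = 0.20 by limma-voom). On chromosome II it spans 10882408 to 10884462 of the - strand, and it shares 21 exon bases with lurp-1 on the other strand.

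The chitin layer is made by CHS-1, the chitin synthase of the eggshell. chs-1 had 62.0, 56.2 and 59.4 CPM in linc-4 worms, against 92.3, 82.1 and 101 CPM in wild type. The groups stood well apart, and chs-1 fell 1.55-fold (adjusted p = 0.010 by limma-voom, log2 fold change -0.63 with SE 0.14), a call lost without linc-4 2 (adjusted p = 0.068). chs-1 lies on the + strand of chromosome I from 7554855 to 7559916 and shares 5 exon bases with T25G3.3 on the same strand.

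Beneath the chitin lie the chondroitin proteoglycans, proteins that carry long chondroitin sugar chains. CPG-1 and CPG-2 also bind chitin, and embryos without both fail to form a sealed eggshell. cpg-1 had 182, 202 and 180.3 CPM in linc-4 1, 2 and 3, against 276, 316 and 264 CPM in wild type 1, 2 and 3. It fell 1.51-fold (adjusted p = 0.011 by limma-voom, log2 fold change -0.60 with SE 0.14), and the call held when any 1 library was left out.

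cpg-2 had 433, 441 and 484 CPM in linc-4 worms, against 610.2, 971 and 792 CPM in wild type. Its wild type values were the most spread of any member, with a coefficient of variation of 6.10% in linc-4 worms and 22.8% in wild type, and wild type 2 was the highest. cpg-2 fell 1.71-fold (adjusted p = 0.0091 by limma-voom, log2 fold change -0.78 with SE 0.17), a call lost without linc-4 2 (adjusted p = 0.054).

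cpg-3, which encodes a further chondroitin proteoglycan core protein, had 336, 307 and 275 CPM in linc-4 worms, against 346, 372 and 366 CPM in wild type. linc-4 1 and wild type 1 differed by little, and cpg-3 did not pass (log2 fold change -0.24, 95% interval -0.53 to 0.05, adjusted p = 0.23 by limma-voom). cpg-1 (+ strand, 4489359 to 4491392) and cpg-2 (- strand, 7102086 to 7103990) are on chromosome III, with cpg-2 41488 bases from egg-2, and cpg-3 (+ strand, 7244937 to 7246295) is on chromosome I, 308559 bases from chs-1. None of the 10 genes shares more than 42 exon bases with another annotated gene.

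**Figure D2:**
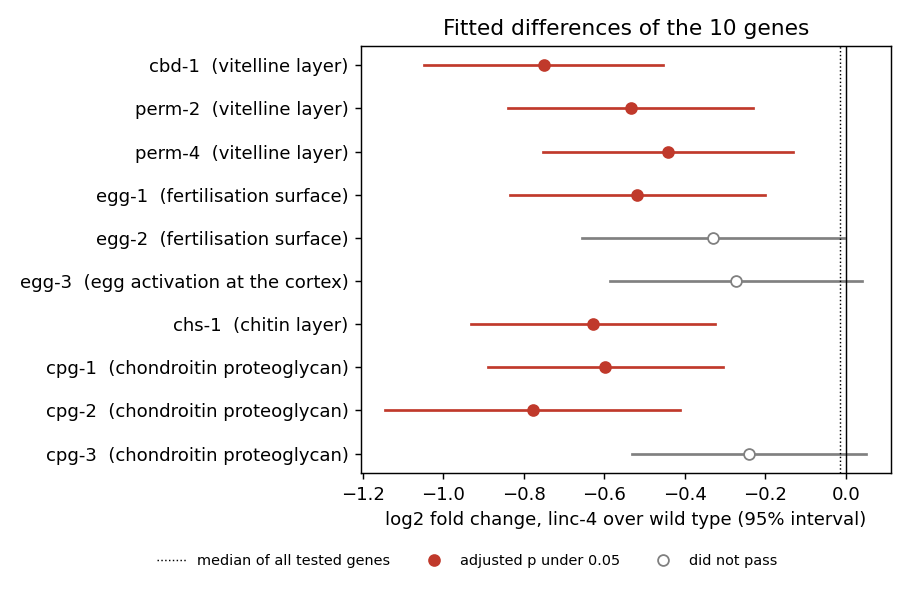
The x axis gives the log2 fold change of each gene, linc-4 over wild type, with its 95% interval (limma-voom, not adjusted over genes); filled points passed an adjusted p under 0.05, open points did not, and the dotted line is the median of all genes tested. Every point lies left of 0, from -0.78 for cpg-2 to -0.24 for cpg-3, and the intervals of the 10 genes overlap one another.

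Whether genes of 1 role differed in their response was examined with the ratio of their raw reads in each library, in which the scaling cancels out, for each of the 7 pairs of genes that share a role. This set of pairs was chosen after the values were seen. For every cpg-3 read there were 0.541, 0.658 and 0.655 cpg-1 reads in linc-4 1, 2 and 3, against 0.798, 0.849 and 0.722 in wild type 1, 2 and 3. cpg-2 gave 1.29, 1.44 and 1.76 reads per cpg-3 read in linc-4 worms, against 1.764, 2.61 and 2.16 in wild type, where linc-4 3 and wild type 1 differed only in the third decimal. In these pairs the groups did not overlap, and the mean log2 ratio of linc-4 minus wild type was -0.36 for cpg-1 to cpg-3 and -0.54 for cpg-2 to cpg-3. Each gave p = 0.10 in a two-sided exact permutation test over the 6 libraries, the smallest p this design allows, and 0.35 after adjustment over the 7 pairs. The ratio of cpg-1 to cpg-2 and the ratios within the vitelline and fertilisation groups overlapped between linc-4 and wild type.

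**Figure D3:**
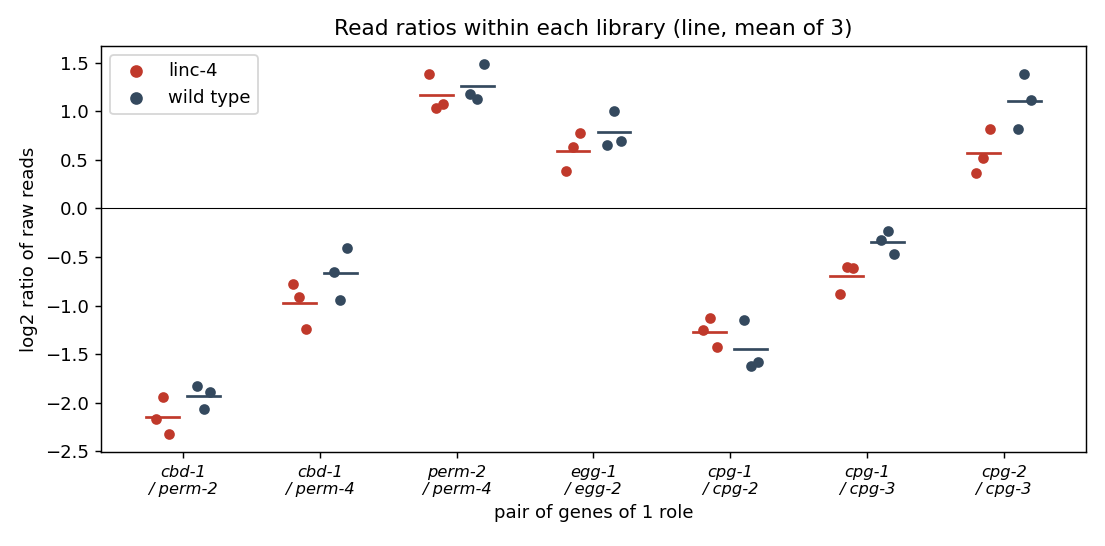
The y axis gives the log2 ratio of raw reads of each named pair within a library, with linc-4 points on the left and wild type points on the right of each pair and a line at the mean of 3. The groups separate for cpg-1 to cpg-3 and, narrowly, for cpg-2 to cpg-3, and overlap for the other 5 pairs.

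Levels were compared between genes per kilobase of annotated exon (CPM per kilobase). perm-2 stood highest at 929 ± 71.3 in linc-4 worms and 1347 ± 109 in wild type (SD, n = 3 each). cpg-2 averaged 263 in linc-4 worms (251 to 281) and 459 in wild type (354 to 564). perm-4 had 275 ± 17.3 in linc-4 worms and 375 ± 52.1 in wild type, and cpg-3 had 298 ± 29.6 in linc-4 worms and 351 ± 13.2 in wild type. These 3 formed a cluster whose neighbours overlapped in both groups: in linc-4 worms cpg-3 had the highest mean of the 3 and cpg-2 the lowest, and in wild type cpg-2 had the highest and cpg-3 the lowest. Below them came cpg-1 at 99.6 ± 6.51 in linc-4 worms and 151 ± 14.2 in wild type, and egg-1 at 61.7 ± 2.97 in linc-4 worms and 88.7 ± 13.7 in wild type.

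The next pair changed places between the groups. cbd-1 had 36.8 ± 4.06 CPM per kilobase in linc-4 worms, where it overlapped egg-2, and 61.6 ± 3.59 in wild type, where each of its values lay above those of egg-2. egg-2 had 41.8 ± 5.98 in linc-4 worms and 52.0 ± 4.37 in wild type. egg-3, at 27.0 ± 1.81 in linc-4 worms and 32.4 ± 3.47 in wild type, and chs-1, at 13.8 ± 0.679 in linc-4 worms and 21.4 ± 2.23 in wild type, were lowest in both groups, separate from each other and from the genes above them. Among 13435 tested protein-coding genes the mean level per kilobase of perm-2 ranked 216th in linc-4 worms and 163rd in wild type, and that of chs-1 ranked 5676th in linc-4 worms and 4490th in wild type.

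**Figure D4:**
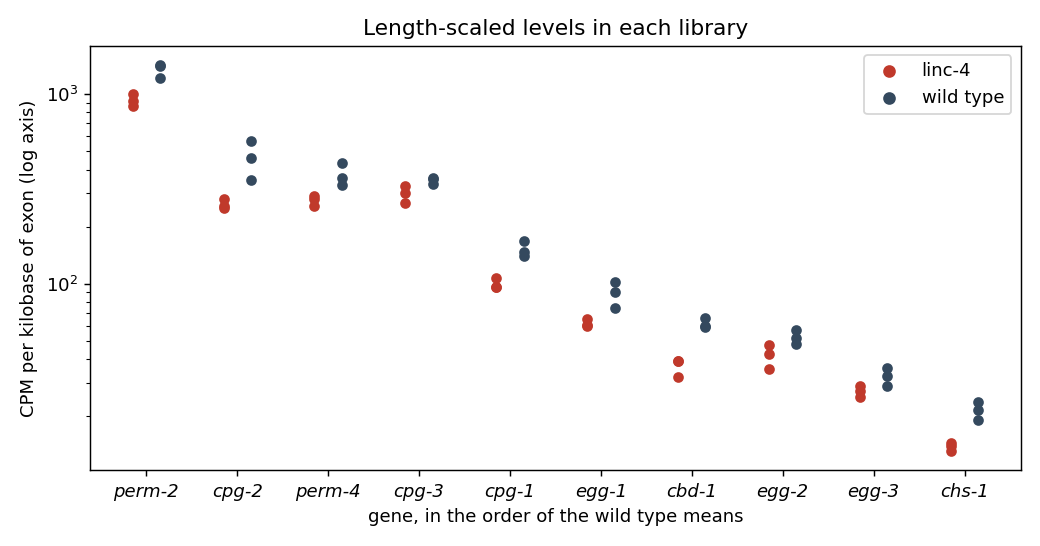
The y axis, logarithmic, gives CPM per kilobase of exon in each library for the 10 genes, ordered by their wild type means, with linc-4 points left of wild type points. The levels span from 13.8 for chs-1 in linc-4 worms to 1347 for perm-2 in wild type (means of 3 libraries), and cpg-2, perm-4 and cpg-3 lie close together.

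Within a group the genes did not all deviate together. Of the 10 genes, 9 were below their own wild type mean in wild type 1, while 7 were above it in wild type 2 and 8 in wild type 3. In linc-4 3, 7 of 10 lay below their linc-4 mean. The coefficient of variation was smaller in linc-4 worms for 7 of the 10. Together the genes took 0.252%, 0.242% and 0.241% of all reads in linc-4 1, 2 and 3, against 0.327%, 0.341% and 0.346% in wild type 1, 2 and 3.

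Further genes were examined as 5 lists with 41 names, of which 36 were matched and tested (syn-4, oops-1, pgm-3, cpg-5 and cpg-6 matched no name). The lists cover egg activation, sugar nucleotide supply for chitin, chondroitin synthesis, further chondroitin proteoglycans and the lipid permeability barrier. They were not confined to genes with a known role in the eggshell. Of these 36, 12 fell and 2 rose, where 7.18% of all genes tested were called lower and 11.5% higher. The number that fell was 3 without linc-4 2, 5 without wild type 1 and 7 without wild type 3, settings in which 1.17%, 2.99% and 3.96% of all genes were called lower. Among 9 egg activation partners 3 fell, with a median log2 fold change of -0.41. egg-5, an inactive phosphatase that with its near-identical copy egg-4 holds MBK-2 at the cortex, had 54.3, 46.4 and 62.2 CPM in linc-4 worms, against 95.9, 88.6 and 79.2 CPM in wild type (log2 fold change -0.69, adjusted p = 0.0096 by limma-voom). egg-4 did not pass (log2 fold change -0.26), and reads of the copies may be split between them. rab-11.1, a GTPase needed for cortical granule release, fell (log2 fold change -0.48, adjusted p = 0.034), as did memi-3, which acts in female meiosis (log2 fold change -0.54, adjusted p = 0.027). Without linc-4 2 or without wild type 1 none of these 3 calls held, memi-3 also lost its call without linc-4 1, and rab-11.1 kept its call only without wild type 2.

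Chitin is built from UDP-N-acetylglucosamine, and 3 of the 5 tested genes of its supply fell, where 7.18% of all genes tested were called lower. The number was 1 without linc-4 2 or without wild type 1, where 1.17% and 2.99% of all genes were called lower. gna-1 and gna-2 did not pass (log2 fold changes 0.21 and -0.37), and gna-1 had the opposite sign. C36A4.4, a probable UDP-N-acetylglucosamine pyrophosphorylase that makes this sugar nucleotide, had 75.9, 67.7 and 83.1 CPM in linc-4 worms, against 129, 163 and 129 CPM in wild type (adjusted p = 0.0020 by limma-voom, log2 fold change -0.89 with SE 0.15). The groups were far apart, and the call held when any 1 library was left out. gfat-1 and gfat-2, which encode the aminotransferase that opens the pathway, fell by 0.62 and by 0.58 on the log2 scale, calls lost without linc-4 2 or wild type 1 and, for gfat-1, also without linc-4 3 or wild type 3.

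Of 9 chondroitin synthesis genes 3 fell, with a median log2 fold change of -0.53, where 7.18% of all genes tested were called lower. With 1 library left out 1 to 5 fell, where 1.17% to 8.81% of all genes were called lower. sqv-5, the chondroitin synthase, had 27.4, 26.7 and 23.8 CPM in linc-4 worms, against 38.6, 50.8 and 49.8 CPM in wild type (log2 fold change -0.84, adjusted p = 0.0041 by limma-voom), and its call held when any 1 library was left out. The nucleotide sugar transporter gene sqv-7 fell by 0.64 and the UDP-glucuronate decarboxylase gene sqv-1 fell by 0.67 on the log2 scale, calls lost without linc-4 2 and also, for sqv-7, without wild type 3 and, for sqv-1, without wild type 1, linc-4 1 or linc-4 3. For mig-22, the partner of SQV-5 in chain building, the log2 fold change was -0.51 (adjusted p = 0.051).

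Among 4 further chondroitin proteoglycan genes tested, cpg-7 and cpg-9 rose and none fell, where 11.5% of all genes tested were called higher. cpg-7 had 158, 179 and 143 CPM in linc-4 worms, against 57.6, 64.4 and 63.7 CPM in wild type (adjusted p = 6.5e-05 by limma-voom, log2 fold change 1.36 with SE 0.14), and its call held when any 1 library was left out. cpg-9 rose by 0.52 on the log2 scale, a call kept only in the fit without wild type 2, while cpg-4 (log2 fold change -0.36) and cpg-8 (0.06) did not pass. cpg-7 shares 67 exon bases with gur-4, which had 46 reads in all libraries, and cpg-9 shares 58 with Y67D8C.22.

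Of 9 genes of the lipid permeability barrier 3 fell, with a median log2 fold change of -0.47, where 7.18% of all genes were called lower. With 1 library left out 1 to 4 fell, where 1.17% to 8.81% of all genes were called lower. perm-1 had 28.4, 29.1 and 25.7 CPM in linc-4 worms, against 41.7, 50.1 and 52.1 CPM in wild type (log2 fold change -0.80, adjusted p = 0.0043 by limma-voom), a call that held when any 1 library was left out. dgtr-1, an acyltransferase of lipid synthesis, fell by 0.62 and perm-5, annotated as lipid-binding, fell by 0.57 on the log2 scale, calls lost without linc-4 2 or wild type 3 and, for perm-5, also without linc-4 3 or wild type 1. The fatty acid synthase gene fasn-1 and the acetyl-CoA carboxylase gene pod-2 did not pass (log2 fold changes -0.27 and -0.25).

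**Figure D5:**
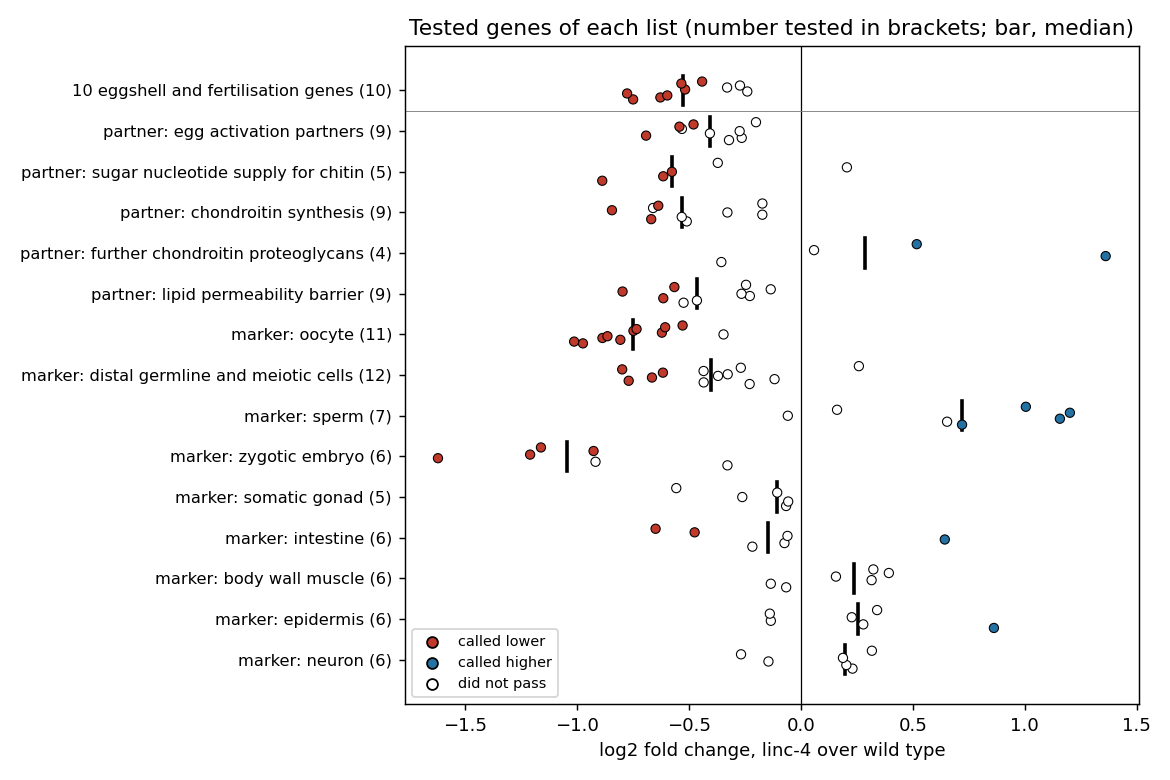
Each point is a tested gene, placed by its log2 fold change, linc-4 over wild type, on the x axis and by its list on the y axis (number tested in brackets); red points were called lower, blue points higher, white points did not pass, and bars are list medians. The median of the 10 eggshell and fertilisation genes at the top (-0.53) lies between those of the oocyte markers (-0.75) and the distal germline and meiotic list (-0.40). The sperm markers have a median of 0.72.

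Markers of the cells that surround these genes moved too. Of all genes tested, 7.18% were called lower (1.17% without linc-4 2) and 11.5% higher. Of 11 oocyte markers 10 fell (6 without linc-4 2), and their summed level was between 1263 and 1326 CPM in linc-4 worms and between 1929 and 2381 CPM in wild type. Of 12 distal germline and meiotic markers 4 fell (1 without linc-4 2), with sums of 611 to 642 CPM in linc-4 worms and 878 to 935 CPM in wild type. The 4 were gld-1, pgl-3, glh-1 and htp-3. None of glp-1, gld-2, fbf-1 and fbf-2 passed, and syp-1 had a log2 fold change of 0.26. The P granule genes pgl-1, pgl-3 and glh-1, which are not confined to distal cells, held much of the sum, so it does not measure distal cells alone. Sperm markers were higher: 4 of 7 tested rose, the sum of the 10 listed genes was 103 to 114 CPM in linc-4 worms and 53.4 to 69.3 CPM in wild type, and spe-9, spe-42 and fer-1, with means of at most 1.21 CPM in linc-4 worms and 0.684 CPM in wild type, were not tested. Zygotic embryo markers fell in 4 of 6 tested; the sum over 12 listed genes, 5 of them under a mean of 1 CPM and 6 of them not tested, was 24.2 ± 1.53 CPM in linc-4 worms and 48.8 ± 4.61 CPM in wild type (SD, n = 3 each). The part that any of these cell types had in the lower level of the eggshell genes was not tested.

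Sums of the somatic gonad, body wall muscle, epidermis and neuron lists overlapped between the groups, and 1 gene of these 4 lists was called, a rise of bli-1 in the epidermal list that was lost without linc-4 1, linc-4 2, wild type 1 or wild type 3. The intestine list, in which 2 yolk genes make up most of the sum, came to 2608 to 2978 CPM in linc-4 worms. In wild type it came to 3519.9 to 4241 CPM, and the groups did not overlap. In it vit-2 and vit-6, the yolk genes, were called lower and ges-1 higher, but no gene was called in either direction without linc-4 2, linc-4 3 or wild type 3, and at most 1 was lower and 1 higher without any other single library.

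Inside each library the summed level of the 10 genes was set against these sums, a ratio in which the scaling again cancels out. perm-2, cpg-2, cpg-3 and perm-4 made up most of that level, so the ratios need not hold for each gene. cbd-1 and cpg-2, with log2 fold changes of -0.75 and -0.78, fell about as far as the oocyte marker median of -0.75, and the other members fell less. The ratio to the oocyte marker sum was 1.84, 1.87 and 1.82 in linc-4 1, 2 and 3. In wild type 1, 2 and 3 it was 1.63, 1.73 and 1.48, so it was higher in all 3 linc-4 libraries. So was the ratio to the zygotic embryo sum, at 94.3, 103 and 98.3 in linc-4 worms and 58.2, 84.9 and 75.0 in wild type. The ratio to the sperm sum was lower in all 3 linc-4 libraries, at 23.6, 20.7 and 20.8, against 55.3, 55.6 and 65.9 in wild type. Against the sum of the distal germline and meiotic list the ratio was 3.80, 3.84 and 3.83 in linc-4 worms. In wild type it was 3.56, 4.12 and 4.01, and the groups overlap. Against the intestine sum it was 0.819, 0.847 and 0.898 in linc-4 worms and 0.893, 0.928 and 0.830 in wild type, which overlap too. Most of that sum came from the yolk genes, so this ratio mainly sets the 10 genes against vit-2 and vit-6. In linc-4 worms vit-2 and vit-6 averaged 912 and 1298 CPM, with a mean intestine sum of 2792 CPM. In wild type they averaged 1283 and 2050 CPM, with a mean sum of 3971 CPM. The ratios to the somatic gonad, body wall muscle, epidermis and neuron sums were lower in all 3 linc-4 libraries than in any wild type library. Against the neuron sum, for example, it was 6.80, 6.73 and 6.69 in linc-4 worms and 9.35, 9.42 and 9.24 in wild type. Most of that sum came from snb-1, which averaged 279 of 353 CPM in linc-4 worms and 310 of 375 CPM in wild type. Likewise fln-1 and inx-8 held most of the somatic gonad sum, lev-11 of the muscle sum and col-19 of the epidermis sum. The ratios to these 4 sums therefore mainly set the 10 genes against those few genes, not against whole tissues. These ratios are descriptions of the 6 libraries and carry no test.

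Among 7845 other genes with a mean of at least 10 CPM, those whose profile over the 6 libraries was most like the mean profile of the 10 members were imb-3, an importin beta gene, sqv-5, Y62H9A.4, rpn-1, a proteasome subunit gene, and polq-1, DNA polymerase theta. Their Pearson r with that mean profile lay between 0.994 and 0.996. The 6 points share their libraries and fall into the 2 groups, which by themselves give a high r, and 7.57% of the 7845 genes had an r above 0.9. imb-3 averaged 52.3 CPM in linc-4 worms and 78.5 CPM in wild type (log2 fold change -0.59, adjusted p = 0.013 by limma-voom, or 0.064 without linc-4 2), and rpn-1 averaged 111 CPM in linc-4 worms and 198 CPM in wild type (log2 fold change -0.83, adjusted p = 0.0016).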

How the data were processed

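Per the submitters' processing notes, the authors used DESeq2 1.22.2, HTSeq 0.12.4, TopHat2 2.1.1, cutadapt 2.10 and the build WBcel235; their settings, the strandedness and the handling of shared reads were not stated. Their deposited table gives raw read counts per gene and library, counts divided by a size factor, and their own log2 fold changes, p-values and adjusted p-values. Of its 46904 rows, 24515 hold a question mark in place of a count, read as no value. No strand being stated, reads of overlapping genes cannot be told apart.

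The raw counts of all genes were tested with limma-voom (limma 3.58.1, R 4.3.3; two-sided, group as the only term), not with a quasi-likelihood count test, since the question marks kept the columns from being registered as counts. Genes were kept with the CPM of 10 reads at the median size of the libraries in at least 3 of the libraries, plus 15 reads in all. Libraries were scaled by trimmed means of M values, computed by a script that was tested on simulated data. 3 reads, the limit a count of 0 allows, are 0.771 CPM in the shallowest library and 0.228 CPM in the deepest. Replicates of either group differed beyond counting noise (chi-square per degree of freedom of 5.35 to 22.1), so none was treated as a repeat. Positions are those of the deposited table, and exon lengths were taken, by gene ID, from the Ensembl 115 annotation of that build.

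The members and lists were chosen with earlier results of these data known. Named genes are all members, the called genes of each partner list and the 5 genes most like the members' mean profile; genes named beyond these, such as egg-4, mig-22, cpg-4, cpg-8, fasn-1, pod-2, bli-1 and ges-1, were chosen after their values were seen. As alternatives, scaling was by median of ratios or upper quartile; the others were scaling without sperm protein, yolk and collagen genes, no filter, a filter on mean counts of 10, a replicate block, limma-trend on log2(CPM + 1), the authors' comparison, a log2 fold change of at least 1, summed egg-1 and egg-2 reads, coding length, and leaving out each library.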

Additional observations from a re-analysis of the deposited data

How the results depend on the processing

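All 10 members had a negative log2 fold change under each alternative tried, and none was called higher. In the limma-voom fit 7050 of all 13778 genes tested had a negative log2 fold change. The alternatives reuse the same 6 libraries, so their shared sign is no further evidence. Of the 10, 4 were called lower with upper-quartile scaling, 4 with a replicate block and 0 with a log2 fold change of at least 1; leaving out 1 library gave 2 to 6. Upper-quartile scaling shifted the median log2 fold change of all genes up by 0.11; relative to that median, the members' median was -0.51 in either scaling. Over all genes 989 were lower and 1591 higher; 476 were lower and 2065 higher with upper-quartile scaling, 652 lower with no low-count filter, 504 with the replicate block, and 89 lower and 805 higher with a log2 fold change of at least 1. With 1 library left out, 158 to 1196 were lower and 674 to 1676 higher. Partner genes called lower numbered 7 with upper-quartile scaling, 0 with a log2 fold change of at least 1 and 3 to 15 with 1 library left out; those called higher numbered 1 with the block, 1 at that fold and 1 to 2 with 1 library left out. The cause of these changes was not tested.

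The perm-2 call was lost with upper-quartile scaling (-0.42) and the block (-0.53). That of perm-4 was lost with upper-quartile scaling (-0.33), no filter (-0.41), the block (-0.44) and scaling without sperm protein, yolk and collagen genes (-0.44). That of egg-1 was lost with upper-quartile scaling (-0.41), no filter (-0.48) and the block (-0.51). egg-2 passed only with its reads summed with those of egg-1 (-0.44). With 1 library left out, log2 fold changes ran from -0.79 to -0.64 for cbd-1, -0.61 to -0.47 for perm-2, -0.52 to -0.34 for perm-4, -0.64 to -0.42 for egg-1, -0.41 to -0.20 for egg-2, -0.35 to -0.20 for egg-3, -0.72 to -0.55 for chs-1, -0.65 to -0.53 for cpg-1, -0.96 to -0.63 for cpg-2 and -0.30 to -0.16 for cpg-3. Coding length in place of exon length kept the rank of all 10 levels in both groups.

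The labels give libraries of the same replicate number nothing else in common. Their deviations from the group means correlated at 0.097, -0.11 and -0.41 over 13778 genes for numbers 1, 2 and 3. No linc-4 library correlated best with the wild type library of its own number. Across all pairs of a linc-4 and a wild type library, the values ran from -0.43 (linc-4 1 with wild type 2) to 0.49 (linc-4 3 with wild type 2). Whether libraries shared a batch cannot be told from these values.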
